A study of Mus musculus with 28 samples.

Results

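The muscle acetylcholine receptor and the proteins that cluster it at the nerve contact are described here across a differentiation course of C2C12 cells. The members are 9 genes of 49089 in the count table, chosen by gene symbol: the receptor chains Chrna1, Chrnb1, Chrnd, Chrng and Chrne, and the clustering genes Musk, Rapsn, Lrp4 and Dok7. C2C12 is an immortalised mouse myoblast line that stops dividing and fuses into myotubes when serum is lowered. No genetic change was made, and all groups are the wild-type line, so every group comes from one cell line grown without a motor nerve. RNA-seq covered differentiation medium (DM, 3% horse serum) at 12, 24, 48, 60 and 96 h and growth medium (GM, 20% fetal bovine serum), with 3 libraries per group. Chromatin accessibility (ATAC-seq, 2 libraries per condition) and chromatin contacts (Hi-C, 3 libraries per condition) were measured at 60 h in DM and in GM.

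The receptor is a pentameric ion channel in the muscle membrane that opens when acetylcholine released by the nerve binds to it. Its foetal form contains the gamma chain, and in innervated muscle the epsilon chain takes the place of gamma. At the contact, agrin from the nerve binds LRP4, LRP4 activates the receptor kinase MuSK together with the adaptor DOK7, and rapsyn, the product of Rapsn, ties receptors into dense clusters. Many receptor genes carry E-boxes, the 6-letter sites read by MyoD and myogenin, and synaptic genes carry N-boxes, which are read by the Ets factor GABP.

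Promoters are shown because genes of one channel followed different courses, but a link between their letters and the courses was not tested. RefSeq entries (GRCm38.p6) were matched by symbol for 6 of the 9 members, namely Chrna1, Chrnb1, Chrng, Chrne, Musk and Dok7, while Chrnd, Rapsn and Lrp4 had no match. The 250 bases before the start are shown, 5′ to 3′ on the gene's strand, for the foetal gamma chain, the adult epsilon chain, the alpha and beta chains and the kinase. Capitals mark E-boxes (CANNTG) and, in Chrne, the N-box (CCGGAA).
Chrng, chr1:87205561-87205810, plus strand: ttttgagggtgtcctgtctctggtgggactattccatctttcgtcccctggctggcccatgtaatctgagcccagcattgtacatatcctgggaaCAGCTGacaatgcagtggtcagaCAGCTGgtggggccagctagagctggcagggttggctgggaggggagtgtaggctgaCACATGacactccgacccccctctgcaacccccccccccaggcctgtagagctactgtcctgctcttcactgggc
Chrne, chr11:70619195-70619444, minus strand: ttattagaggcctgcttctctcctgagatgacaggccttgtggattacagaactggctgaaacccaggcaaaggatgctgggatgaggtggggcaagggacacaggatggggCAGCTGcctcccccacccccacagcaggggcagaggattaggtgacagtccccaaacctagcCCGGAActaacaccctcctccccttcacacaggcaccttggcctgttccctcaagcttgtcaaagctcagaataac
Chrna1, chr2:73580339-73580588, minus strand: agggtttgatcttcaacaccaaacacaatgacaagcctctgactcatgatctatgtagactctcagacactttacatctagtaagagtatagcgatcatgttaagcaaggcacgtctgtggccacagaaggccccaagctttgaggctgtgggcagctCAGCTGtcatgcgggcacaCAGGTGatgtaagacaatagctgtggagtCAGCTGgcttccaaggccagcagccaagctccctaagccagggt
Chrnb1, chr11:69795938-69796187, minus strand: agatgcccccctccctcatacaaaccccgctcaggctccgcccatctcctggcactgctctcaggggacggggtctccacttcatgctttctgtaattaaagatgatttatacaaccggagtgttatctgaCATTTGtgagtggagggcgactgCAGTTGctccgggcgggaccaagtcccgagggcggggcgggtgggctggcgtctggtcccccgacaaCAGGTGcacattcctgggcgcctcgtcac
Musk, chr4:58285712-58285961, plus strand: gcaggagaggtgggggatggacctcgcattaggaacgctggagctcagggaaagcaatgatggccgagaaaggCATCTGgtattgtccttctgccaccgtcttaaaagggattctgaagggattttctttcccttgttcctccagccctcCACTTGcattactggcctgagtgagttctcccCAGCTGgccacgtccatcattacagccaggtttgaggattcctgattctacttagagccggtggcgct

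Both strands of windows reaching 250 bases before and 50 after a start were searched, and CAGCTG matches are also CANNTG matches. An E-box was found in 69.0% of 21263 promoters of protein-coding genes, and 14.7% held 3 or more. Chrna1, Chrnb1, Chrng and Musk held 3 each, whereas Chrne and the first Dok7 entry held 1 each and the second Dok7 entry held none. CAGCTG, the form with a GC centre, stood in 15.6% of promoters, and 1.62% held 2 or more. Chrng held CAGCTG at −155 and −132 bases from its start, and Chrna1 held it at −92 and −44. Musk held 1 at −68 and Chrne held 1 at −138, while Chrnb1 and Dok7 held none. The N-box was found in 18.7% of promoters. Among the 6 members with a matched entry it was found in Chrne alone, at −76. Chrnd, Rapsn and Lrp4 could not be searched. A match is a description of the letters and not of a bound site.

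Levels are in CPM, read counts scaled to library size (by TMM) and given per 1e6 counts, and 15303 genes were tested. Library totals lay between 24154680 and 36405121 counts. The 8 markers of muscle cells summed to 12219 to 14174 CPM at 96 h and 914 to 961 CPM in GM. In bulk RNA, fewer cells of a type and less RNA per cell cannot be told apart. Neuronal markers summed to at most 0.299 CPM, and 8 of 8 stayed under 1 CPM in all groups. Macrophage and endothelial markers summed to 0.703 to 2.72 CPM. Schwann cell markers summed to 49.4 to 76.8 CPM, carried by Pmp22 and Egr2, and their part in the results was not tested. In the third library at 24 h, Polr2a, a subunit of RNA polymerase II, was 1.73 log2 CPM above the mean of the other 2 libraries. The members deviated there by −0.10 to 0.18 on the same scale, and all 8 tested members were called at 24 h both with and without that library. Replicates are called biological in the labels, with nothing on whether they were grown separately, and the p-values reflect library-to-library spread that may be technical.

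Which receptor chains change as myoblasts become myotubes was followed first. All 4 chains of the foetal channel were higher at 96 h than in GM, and the gamma chain gained most. The adult epsilon chain was almost without reads at every time. Of the 8 members that passed the filter on low counts, 8 were called higher at 96 h and none lower, at an adjusted p under 0.05 by edgeR's quasi-likelihood test. Over all genes tested, 34.8% were called higher at 96 h. Statements below on overlap between libraries describe single genes. The share of all genes whose groups did not overlap is not given beside them. The median log2 fold change was 2.20 over the 8 members and 0.01 over all genes tested.

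The gamma chain gene Chrng had 3.52, 3.06 and 3.92 CPM in GM, 4.63, 4.38 and 4.37 CPM 12 h into DM, with 21.3, 19.5 and 23.1 CPM after 24 h. Chrng then had 55.5, 57.3 and 55.8 CPM after 48 h, 61.6, 54.3 and 59.5 CPM by 60 h, and 177, 176 and 202 CPM at the last time, 96 h. No library of a time from 12 h on overlapped with GM, and the 3 libraries at 96 h stood above all others. Its log2 fold change of 96 h against GM was 5.72 ± 0.09 (SE, 3 libraries per group, edgeR adjusted p = 1.44e-22), a 52.9-fold difference, and 147 of the 15303 genes tested had a higher one. At 24 h its log2 fold change against GM was already 2.61 ± 0.09, whereas the other 7 tested members lay between 0.45 and 0.77.

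The epsilon chain gene Chrne had 0 reads in each library of GM and of 12, 24, 48 and 60 h. At 96 h it had 0 reads in the first library and 1 read in each of the other two. The 2 reads among all 18 libraries put its level, averaged over all groups, at 0.0132 CPM or less. This is the upper bound of the exact 95% Poisson interval, which covers counting error only. At 96 h the interval ran from 0.00262 to 0.0781 CPM, and in GM, with 0 reads, its upper bound was 0.0414 CPM. Chrne did not pass the filter, so no fold change is given. A second gene, 4930544D05Rik, lies inside the Chrne span and had 7 reads in 5 libraries.

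The alpha chain gene Chrna1, whose protein holds most of the acetylcholine site, had 201, 207 and 219 CPM in GM, 210, 215 and 211 CPM 12 h into DM, with 327, 327 and 318 CPM after 24 h. Chrna1 then had 531, 543 and 551 CPM after 48 h, 568, 550 and 584 CPM by 60 h, and 785, 759 and 813 CPM at the last time, 96 h. The libraries at 12 h overlapped with those of GM, and from 24 h on all stood above them. The log2 fold change at 96 h was 1.91 ± 0.04 (adjusted p = 4.53e-20), or 3.75-fold. The long non-coding RNA gene Gm30940 overlaps the end of Chrna1 and was not analysed here.

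The delta chain gene Chrnd had 24.5, 27.3 and 24.8 CPM in GM, 30.0, 29.2 and 25.7 CPM 12 h into DM, with 43.5, 43.0 and 42.7 CPM after 24 h. Chrnd then had 59.9, 60.5 and 58.2 CPM after 48 h, 61.9, 58.6 and 65.6 CPM by 60 h, and 121, 113 and 132 CPM at the last time, 96 h. Values at 12 h overlapped with GM, and those at 48 and 60 h overlapped with each other. The log2 fold change at 96 h was 2.25 ± 0.06 (4.76-fold, adjusted p = 3.95e-18). Chrnd and Chrng are neighbours on chromosome 1, with Chrnd at 87190597 to 87200070 and Chrng at 87205811 to 87211835 (GRCm38.p6).

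The beta chain gene Chrnb1 had 24.2, 25.2 and 25.5 CPM in GM, 34.4, 34.1 and 35.2 CPM 12 h into DM, with 44.4, 39.99 and 43.9 CPM after 24 h. Chrnb1 then had 68.4, 69.5 and 66.7 CPM after 48 h, 65.4, 63.3 and 68.5 CPM by 60 h, and 109, 108 and 115 CPM at the last time, 96 h. All 3 libraries at 12 h were already above GM, with a log2 fold change of 0.47 ± 0.05 (adjusted p = 2.84e-07). At 96 h the log2 fold change was 2.15 ± 0.05, or 4.44-fold (adjusted p = 6.9e-20).

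**Figure D1:**
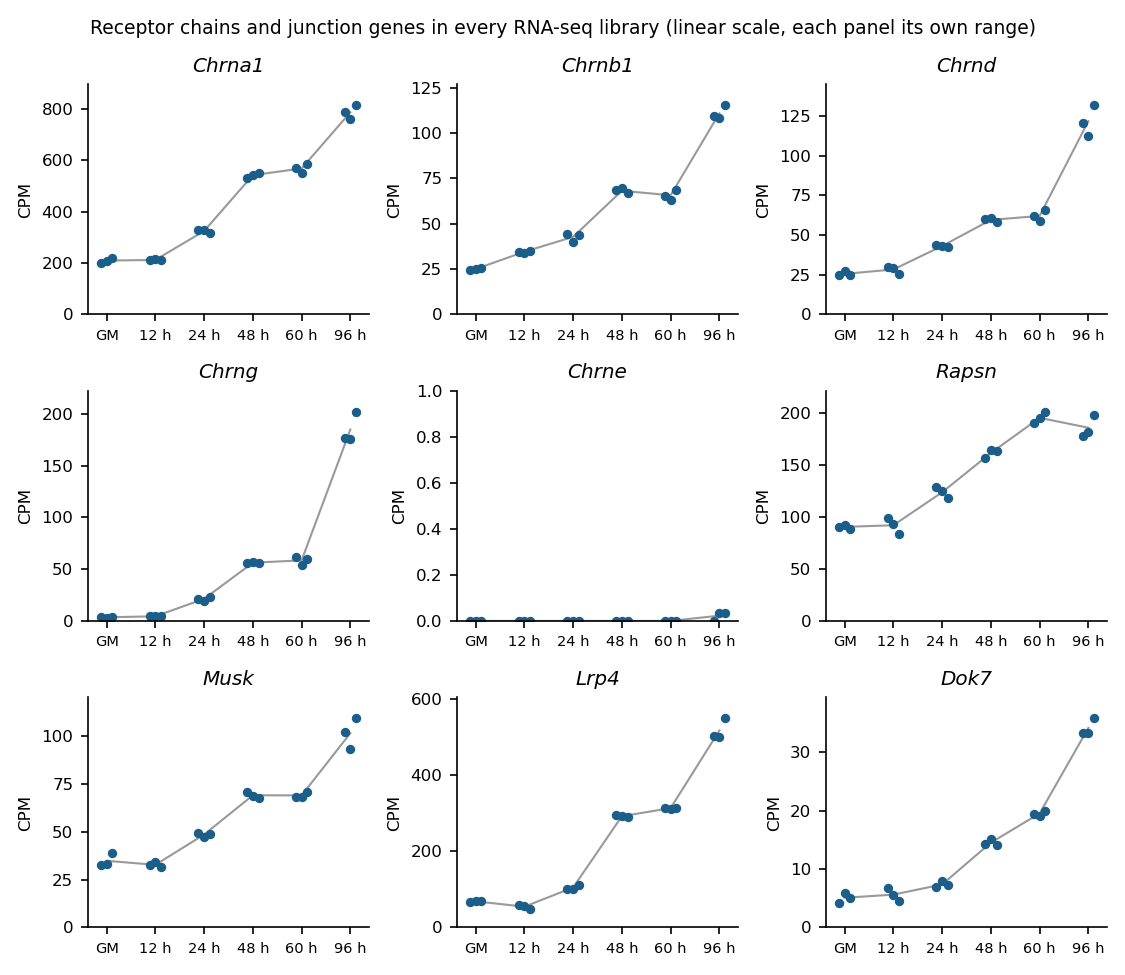
Level of each of the 9 genes in CPM (linear axis from 0, each panel with its own range) in GM and at 12, 24, 48, 60 and 96 h in DM, with 1 point per library and a line through the group means (3 libraries per group). Chrng reached 176 to 202 CPM at 96 h, against 3.06 to 3.92 CPM in GM, while Chrne stayed at or near 0 throughout.

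The clustering genes rose as well, and Rapsn least. Rapsn, the scaffold that anchors receptors, had 90.6, 91.7 and 88.7 CPM in GM, 98.4, 93.4 and 83.9 CPM 12 h into DM, with 128, 125 and 118 CPM after 24 h. Rapsn then had 157, 164 and 164 CPM after 48 h, 190, 195 and 201 CPM by 60 h, and 178, 181 and 198 CPM at the last time, 96 h. It was the one tested member whose mean was highest at 60 h rather than at 96 h, although the libraries of these times overlapped. Its log2 fold change was 1.11 ± 0.05 at 60 h against GM (adjusted p = 1e-13) and 1.04 ± 0.05 at 96 h against GM (adjusted p = 1.72e-13). The gene Gm13778 spans Rapsn and had 30 reads in all libraries together.

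Lrp4, the receptor for agrin, had 67.1, 68.8 and 69.5 CPM in GM, 58.6, 55.1 and 49.5 CPM 12 h into DM, with 101, 101 and 112 CPM after 24 h. Lrp4 then had 294, 293 and 289 CPM after 48 h, 313, 312 and 314 CPM by 60 h, and 502, 499 and 548 CPM at the last time, 96 h. It fell at 12 h, where all 3 libraries lay below GM (log2 fold change −0.33 ± 0.06, adjusted p = 8.81e-05). At 96 h it was 7.54-fold above GM (log2 2.91 ± 0.06, adjusted p = 7.83e-21), which was the largest change among the clustering genes.

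Musk, the kinase gene, had 32.7, 33.1 and 38.7 CPM in GM, 32.5, 34.2 and 31.5 CPM 12 h into DM, with 49.2, 47.6 and 49.0 CPM after 24 h. Musk then had 71.0, 68.8 and 67.6 CPM after 48 h, 68.2, 68.0 and 71.1 CPM by 60 h, and 102, 93.6 and 109 CPM at the last time, 96 h. The libraries at 12 h overlapped with GM, and those at 48 and 60 h overlapped with each other. The log2 fold change at 96 h was 1.54 ± 0.06, or 2.91-fold (adjusted p = 1.19e-15).

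Dok7, the adaptor that activates MuSK from inside the cell, had 4.26, 5.96 and 5.02 CPM in GM, 6.72, 5.58 and 4.54 CPM 12 h into DM, with 6.94, 7.87 and 7.26 CPM after 24 h. Dok7 then had 14.3, 15.1 and 14.2 CPM after 48 h, 19.5, 19.1 and 20.0 CPM by 60 h, and 33.3, 33.4 and 35.8 CPM at the last time, 96 h. Values at 12 h overlapped with GM, and from 24 h on all libraries stood above GM. The log2 fold change at 96 h was 2.74 ± 0.11 (6.68-fold, adjusted p = 7.47e-16).

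The course was then split into steps between neighbouring times, to see when each gene moved. At 12 h against GM, Chrnb1 and Chrng were called higher and Lrp4 lower, while 17.8% of all genes were called higher and 17.2% lower. The Chrng change at 12 h was 0.35 ± 0.11 (adjusted p = 0.0193). It was not called with only the 2 groups fitted (adjusted p = 0.0604) and without GM replicate 2 (adjusted p = 0.103). Chrnd, at 0.15 ± 0.07 (adjusted p = 0.0929), was called in 8 of the alternatives.

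Between 12 and 24 h all 8 tested members were called higher, against 27.8% of all genes (26.5% were lower), and Chrng led with 2.25 ± 0.09. All 8 were again called higher from 24 to 48 h, against 17.5% of all genes, with 14.8% lower. In this step Lrp4 gained most, with 1.48 ± 0.05, followed by Chrng with 1.40 ± 0.07 and Dok7 with 0.98 ± 0.10. Against GM, 8 of 8 were called higher at 24, 48 and 60 h, where 30.2%, 32.5% and 33.1% of all genes were, and none was called lower, as 30.6%, 32.8% and 32.2% of all genes were. The test of any difference from GM called 8 of 8, and 86.0% of all genes, so that count is near the background.

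From 48 to 60 h 2 members were called higher and none lower, while 15.8% of all genes were called higher and 11.3% lower. These were Rapsn, at 0.27 ± 0.05 (adjusted p = 0.000712), and Dok7, at 0.43 ± 0.10 (adjusted p = 0.0026). The other 6 had changes from −0.05 to 0.10, with adjusted p from 0.169 to 0.989. With scaling by total counts, which moved the median of all genes by −0.10 in this step, Chrnb1 was called lower (−0.16, adjusted p = 0.0239). From 60 to 96 h 7 of 8 were called higher, against 22.6% of all genes (24.6% were lower), and Chrng again led with 1.66 ± 0.06. Rapsn was the exception, at −0.07 ± 0.05 (adjusted p = 0.282). These comparisons share libraries.

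**Figure D2:**
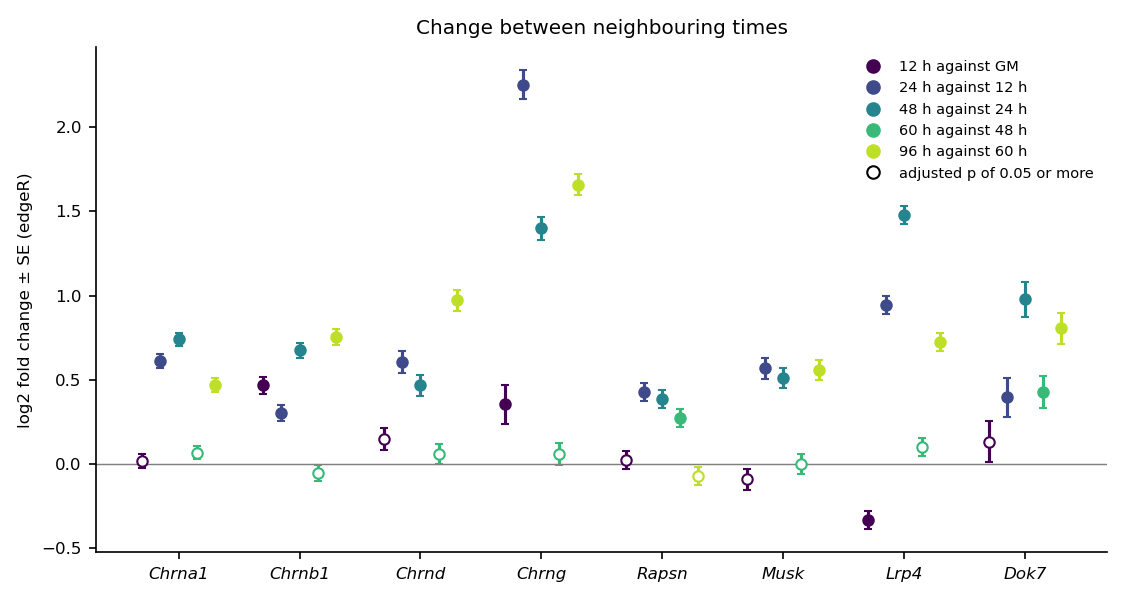
Log2 fold change from edgeR for each step between neighbouring times, for the 8 tested genes (3 libraries per group). Bars are ± SE, derived from the log2 fold change and F, and open symbols mark an adjusted p of 0.05 or more. The step from 48 to 60 h sits between −0.05 and 0.43, and the step from 12 to 24 h reaches 2.25 in Chrng.

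Levels of different genes cannot be set against each other here, since exon lengths were not at hand, but the ratio of reads of 2 genes within a library can be followed over time without scaling between libraries. The pairs were chosen after the values had been seen, and with 3 libraries against 3 an exact two-sided permutation test cannot give a p below 0.1 (0.138 after adjustment over 40 comparisons). The Chrng to Chrna1 read ratio was −5.90 ± 0.15 in GM, −3.93 ± 0.14 at 24 h and −2.09 ± 0.07 at 96 h on the log2 scale (SD, n = 3, exact p = 0.1 for both times against GM). The ratio of its neighbour Chrnd to Chrna1 stayed within a narrower band, with means from −3.19 at 60 h to −2.69 at 96 h and −3.04 in GM. At 96 h this ratio was 0.34 above GM, without overlap and with the same exact p = 0.1. The pairs therefore differ in the size of the change and not in this p. The neighbours differed in course, as the Chrng to Chrnd ratio was 0.60 ± 0.05 at 96 h and −2.87 ± 0.26 in GM.

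Rapsn gained less than Chrna1. Its log2 read ratio to Chrna1 was −2.08 ± 0.05 at 96 h and −1.21 ± 0.08 in GM, and no library of the 2 groups overlapped (exact p = 0.1). Within the kinase complex the opposite was seen. The Lrp4 to Musk ratio was 2.35 ± 0.06 at 96 h and 0.98 ± 0.12 in GM, and the Dok7 to Musk ratio was −1.57 ± 0.07 at 96 h and −2.78 ± 0.27 in GM (exact p = 0.1 each). Neither of these pairs overlapped between 96 h and GM.

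**Figure D3:**
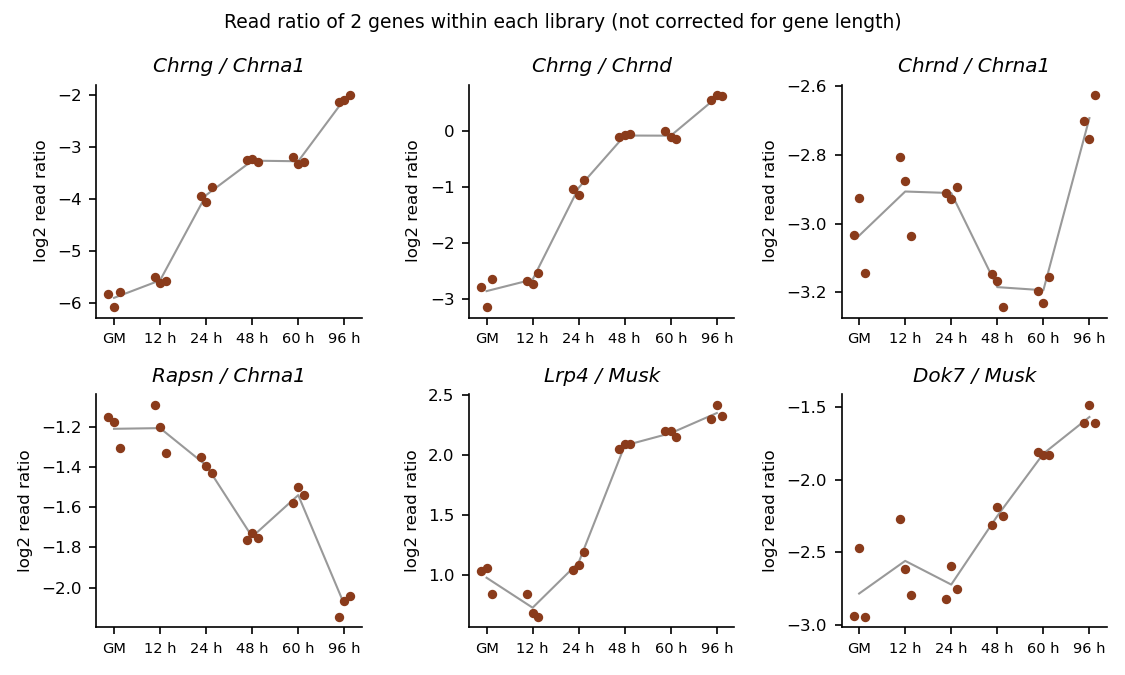
Log2 ratio of the reads of 2 genes within each library in GM and at 12, 24, 48, 60 and 96 h, with 1 point per library and a line through the means of 3 libraries; each panel has its own range and ratios are not corrected for gene length. The Chrng to Chrna1 ratio is −2.09 at 96 h against −5.90 in GM, while Rapsn to Chrna1 is −2.08 at 96 h against −1.21 in GM.

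The profiles most like each member over the 18 libraries were ranked by Pearson's r of log2 CPM among 10897 protein-coding genes, as a description, since all points share the 6 groups and the same libraries. Chrna1 was closest to Actn3, a sarcomere alpha-actinin (r = 0.997), Sntb1, a syntrophin of the dystrophin complex (r = 0.997), and Tmem8c, which encodes the fusion protein myomaker (r = 0.997). Lrp4 was closest to Bicd2, Des, the muscle intermediate filament desmin, and Actn3 (r = 0.998, 0.997 and 0.994). Chrng was closest to Calcoco1, Bin1, which shapes T-tubules, and AI464131 (r = 0.997, 0.997 and 0.996). Musk was nearest to Ryr1, the calcium release channel, Susd6 and Atf6, a sensor of unfolded protein (r = 0.992, 0.991 and 0.991). Dok7 was nearest to Pisd, Myh8, the perinatal myosin, and Araf, a kinase (r = 0.992, 0.990 and 0.990). The nearest genes to Rapsn were Sil1, Cst3 and Itm2c, at r = 0.992, 0.991 and 0.991. Those of Chrnb1 were Synpo2l, Nuak1 and Rb1, and those of Chrnd were Fam53b, Slc6a6 and Tmbim1, all at r of 0.992 to 0.995. Among the members themselves r ran from 0.904 for Chrnd and Rapsn to 0.992 for Chrna1 and Lrp4. The r of other gene pairs is not given for comparison. A high r does not mean a change of like size. At 96 h against GM, Tmem8c had a log2 fold change of 6.45 and Chrna1 1.91, whereas Bin1 had 1.79 and Chrng 5.72.

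Other genes of the junction were read from 7 lists at 96 h against GM, where 34.8% of all genes tested were called higher and 34.1% lower. Of 14 tested genes of the synaptic basal lamina, cytoskeleton and channels, 12 were called higher and none lower, with a median log2 fold change of 0.86. Colq, the collagen tail of the synaptic esterase, had 3.60 ± 0.37, and the syntrophin gene Sntb1 had 2.92 ± 0.07. Scn4a, the sodium channel of mature muscle, had 1149 reads at 96 h and 3 in GM, a ratio of 369 (exact 95% interval 126 to 1790, counting error only).

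The synaptic genes Ache, the esterase that breaks down acetylcholine, and Col13a1 did not pass the filter. Ache had 0.336 to 0.428 CPM at 96 h and 0 reads in all GM libraries. Agrn, which encodes agrin itself and was picked after its values had been seen, as was Ache, had 0.40 ± 0.10 at 96 h (adjusted p = 0.000921), but −0.45 ± 0.10 at 12 h and −0.44 at 60 h, both called lower.

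In the neuregulin, ErbB and Ets list 3 of 8 tested genes were called higher and 5 lower (median −0.41). Erbb3, a neuregulin receptor, had 3.93 ± 0.07, whereas the Ets factor Etv4 had −2.56 ± 0.10, Gabpb2, a subunit of GABP, had −1.12 ± 0.05, and the ligand gene Nrg1 had −0.93 ± 0.11. Gabpa, the DNA-binding subunit of GABP, named here after its values had been seen, was called higher at 0.20 ± 0.05 (adjusted p = 0.00211). Of 18 partners in MuSK signalling 9 were called higher and 4 lower (median 0.09). Macf1, a cytoskeletal linker, had 1.89 ± 0.07, Sorbs2 had 1.81 ± 0.06 and Prkar1a, a regulatory subunit of protein kinase A, had 1.08 ± 0.04. The tyrosine kinase gene Src went the other way, at −0.85 ± 0.07.

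Among myogenic and activity-dependent regulators 6 of 8 were called higher and 1 lower (median 0.71). Myog, the factor that drives terminal differentiation, had 5.91 ± 0.08, Runx1 had 1.48 ± 0.07 and the deacetylase gene Hdac9 had 1.03 ± 0.06, while Myf5, a myoblast factor, had −1.19 ± 0.06. Genes of receptor glycosylation, folding and assembly split, with 5 of 9 called higher, 4 lower and a median of 0.23. With only the 2 groups fitted, and with DESeq2, 2 were called lower. Gfpt1, the entry enzyme of hexosamine synthesis, had 0.62 ± 0.07, the chaperone gene Canx had 0.31 ± 0.05, Unc50 had 0.31 ± 0.06 and Dpagt1, which starts N-glycans, had −0.48 ± 0.09.

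Of 11 neuronal-type receptor chains 1 was tested, Chrnb2, and it did not pass at 96 h (−0.18). All 11 together summed to 0.428 to 1.101 CPM over the libraries, with none at 1 CPM or more on average. Among WNT-type ligands and LRP relatives 2 of 7 were called higher and 2 lower (median −0.06). These were Wnt9a (2.88 ± 0.18), Lrp6 (0.50 ± 0.04), Lrp2 (−2.68 ± 0.49) and Wnt4 (−0.73 ± 0.16). The lists were chosen with earlier results of these data known.

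**Figure D4:**
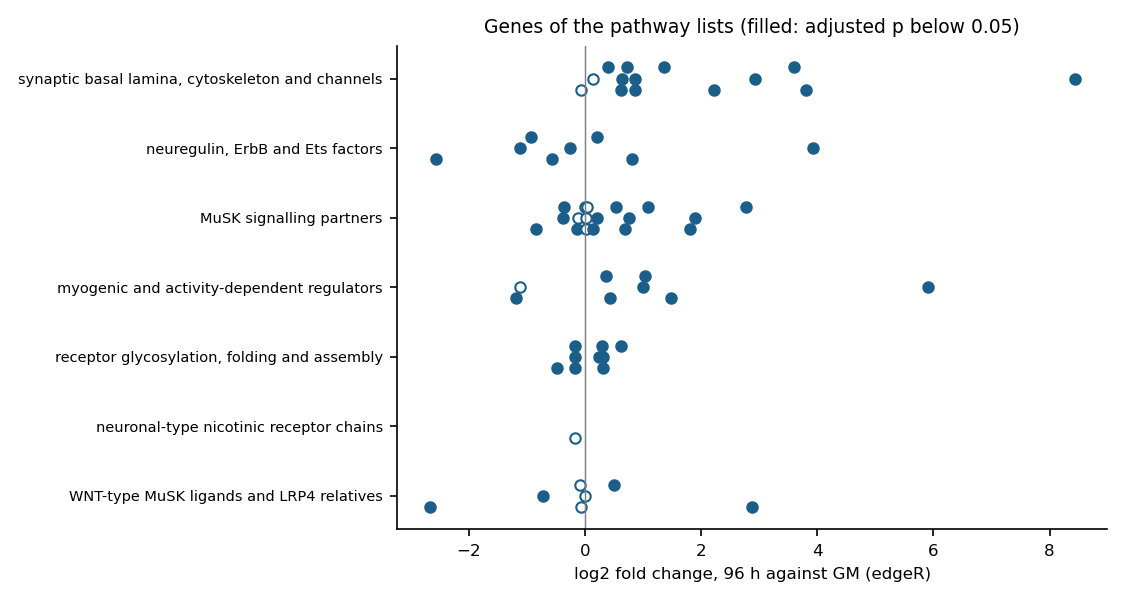
Log2 fold change of 96 h against GM from edgeR for each tested gene of 7 lists (3 libraries per group, filled symbols mark an adjusted p below 0.05, vertical spread within a list has no meaning). The synaptic list reaches 8.43 in Scn4a, a fitted value that rests on 3 reads in GM, and the neuregulin, ErbB and Ets list spans −2.56 to 3.93.

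Whether the loci differed in chromatin was examined from 1 deposited ATAC-seq peak list per condition, which gives no replicate error and no test. Peaks stood within 1 kb of the start in both lists for 5 of the 6 members with an annotated start, and Chrne had none in either. Among 17492 protein-coding genes 66.0% had such a peak in both lists and 30.2% in neither, while 1.9% had it in 1 list only, in each direction. At Chrng the peak ran from −1921 to 809 bases around the start in the 60 h list, 2731 bases wide, and from −1178 to 757 in the GM list, 1936 bases wide. Both cover the E-boxes printed above. The authors' fold enrichment of this peak was 3.02 in the 60 h list and 4.74 in the GM list, values that describe each list and are not compared.

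The starts of Chrna1, Chrnb1 and Musk lay in peaks of 2018, 1142 and 1573 bases in the 60 h list, and of 1798, 1051 and 1335 bases in the GM list. The Dok7 start lay in a peak of 1941 bases in the 60 h list, which in the GM list overlapped 2 separate peaks, of 604 bases over the start and of 448 bases further into the gene. The fold enrichment of the peak over its start was the lowest of the members, at 1.75 in the 60 h list and 2.14 in the GM list. For Chrnd, Rapsn and Lrp4, whose strand is not in the tables used, a peak covered the lower end of the gene span in both lists. The nearest peaks to Chrne lay inside the gene, with fold enrichments of 1.39 to 1.70 in the 60 h list and 1.97 in the GM list, and upstream of its start, with 6.43 in the 60 h list and 6.27 in the GM list.

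Within the gene spans and 10 kb on each side there were 82 peaks in the 60 h list and 71 in the GM list, of which 62 in each overlapped the other list. The 60 h list had 20 without a partner, or 24.4%, against 23.3% of all its peaks, and the GM list had 9, or 12.7%, against 19.6% of all its peaks. Of those in the 60 h list alone, 5 lay at Lrp4 and 4 each at Chrnb1, Musk and Dok7, while Rapsn had none in either list. Of the 9 in the GM list alone, 4 lay at Musk as well. Many of these peaks scored low, and 11 of the 20 and 5 of the 9 had a −log10 q of 5 or more. These included all 4 of the 60 h list at Musk, none of the 4 of the GM list there, 2 of 5 at Lrp4, and 1 of 4 each at Chrnb1 and Dok7. Where partners had to overlap by 50% of both peaks, 38 in the 60 h list (46.3%, against 36.8% of all its peaks) and 27 in the GM list (38.0%, against 34.1%) had none. The one at Chrnb1 with the highest score lay inside the gene, 727 bases wide, at chr11:69789138-69789864 (mm10, fold enrichment 3.31, −log10 q 24.9). Musk had 3 of its 4 inside the gene, and the one at chr4:58332403-58333198 had a fold enrichment of 3.01 and a −log10 q of 24.2. These examples were chosen after their values had been seen.

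**Figure D5:**
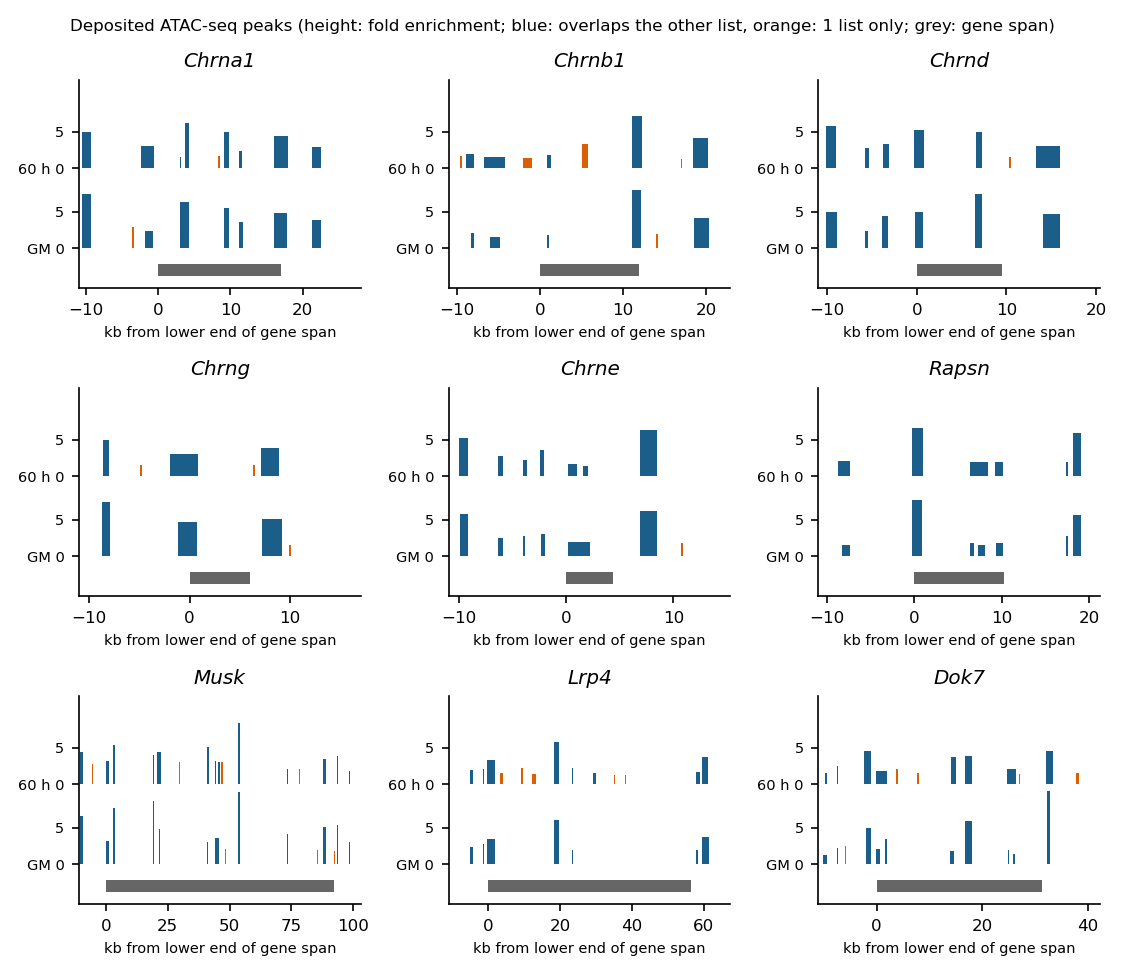
Deposited ATAC-seq peaks at each gene, by distance in kb from the lower end of the gene span (grey bar), with the 60 h list above the GM list; bar height is the authors' fold enrichment, to be read within a list, blue bars overlap a peak of the other list and orange bars do not. The peaks at most gene ends are blue in both lists, and the 20 orange peaks of the 60 h list, 1 of them drawn in both the Chrnd and the Chrng panel, stand mostly at Lrp4, Chrnb1, Musk and Dok7.

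The deposited Hi-C loop table lists pairs of 25 kb anchors and the condition in which each was called, with no replicate values. A loop anchor covered the start, or the lower end of the span where no start was annotated, in 8 of 9 members, and 65.4% of all protein-coding genes had one over a start. Chrng was without one. An anchor over any part of the gene was found for the same 8, and for 76.7% of protein-coding genes. Anchors of 9 loops lay within 25 kb of the Chrng start. Of these, 4 were called at 60 h only, 4 in GM only and 1 in both. Over any part of the members there were 37 loops, 13 called at 60 h only, 16 in GM only and 8 in both. Of all 63732 loops, 37.7% were called at 60 h only, 51.1% in GM only and 11.2% in both.

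Chrna1 had most loops, 12, with 5 at 60 h only, 3 in GM only and 4 in both. A loop in both conditions joined its start to an anchor over Chn1, and another, 1100 kb long, joined the other end of the gene to an anchor over Evx2 and Hoxd13. Its start was joined to an anchor over Atf2 at 60 h only, and its other end to a neighbouring anchor over Atf2 in GM only. Musk had 8 loops, of which 1, called in both conditions and 100 kb long, joined its start to its own end. At 60 h only, an anchor over the end of Musk was joined to Svep1 and, by another loop, to Pakap. Loops from its start to Susd1 and Hsdl2, and another 3 from inside or the end of the gene, 2 to Pakap and 1 to an anchor over no protein-coding gene, were called in GM only.

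Lrp4 had 9 loops, and the only one over the lower end of its span, to Arfgap2 and 1110051M20Rik, was called at 60 h only. A loop from Lrp4 to Spi1 and Mybpc3 was called in both conditions. Its other partners at 60 h only were Nup160, Fnbp4, Agbl2, Mtch2, Mybpc3 and Madd, and in GM only Fnbp4, Agbl2, C1qtnf4, Ndufs3, Kbtbd4, Ptpmt1, Arfgap2 and 1110051M20Rik. The 2 loops of Chrne, to Pelp1 and to Psmb6, Gm40193 and Pld2, were called in both conditions. Chrnb1 was joined to Gucy2e at 60 h only, and Chrnd to Nppc at 60 h only and to Cops7b in GM only. Rapsn was joined to Ptprj, and Dok7 to Nsd2 and Nelfa, in GM only.

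The domains that held Chrna1 (1200 kb) and Musk (880 kb) had identical ends at 60 h and in GM, and those of the other 7 members did not. Over all protein-coding genes 24.3% lay in a domain with identical ends. Dok7 lay in a domain of 600 kb at 60 h, which began 16.8 kb from its start. In GM its domain was 1520 kb, and the nearest boundary was 543 kb away. The boundary nearest Dok7 at 60 h had a strength score of 0.274, the lowest among those nearest the members, and the one in GM had 0.597. The domains of the other 6 differed by 1 or 2 bins of 40 kb at their ends. Chrnd and Chrng shared a domain in each condition, as did Rapsn and Lrp4.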

How the data were processed

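The authors' deposited RNA-seq table holds whole-number read counts per gene for 18 libraries (strand-specific, paired-end), for which the submitters' processing notes name STAR, RSEM and DESeq2 and the mouse build mm10. The deposited ATAC-seq lists, 1 per condition, give each peak a fold enrichment ratio and a −log10 q, and the submitters' processing notes name Bowtie2 2.2.6, SAMtools 1.9, MACS2 2.2.7 and deepTools 2.5.2. The labels do not state whether libraries were pooled before peaks were called. Deposited Hi-C files hold a loop table, domains and boundaries with a strength score on 40 kb bins, made with HiC-Pro among other tools per the submitters' processing notes.

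Counts were tested with edgeR 4.0.16 (R 4.3.3) using TMM scaling, filterByExpr, 1 fit over all 18 libraries with group as the sole term (12 residual degrees of freedom) and quasi-likelihood F tests, with Benjamini-Hochberg adjustment over the 15303 genes tested and calls at an adjusted p below 0.05. The procedure was tested on simulated data. DESeq2 1.42.0, other scalings and filters, a replicate block and leaving out each library were alternatives. Peaks and loops were intersected with gene positions from RefSeq (GRCm38.p6), without a test. Intervals and floors cover counting error only.

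The text names all 9 members, at most 4 called genes with the largest change in each list plus a called one of opposite sign, the 3 genes with the most similar profile to each member, and genes at the other loop anchors. Some list genes that this rule picks are not reported here. Members and lists were chosen with earlier results of these data known. Levels of the chains per kb of exon, and the epsilon to gamma ratio, were not computed, since exon lengths were not at hand.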

Additional observations from a re-analysis of the deposited data

How the results depend on the processing

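Of 1872 alternative values for single genes, 1853 kept their direction and their side of the threshold, and of 873 alternative counts 861 stayed within 1.5 times. At 96 h against GM the log2 fold change of Chrng ranged from 5.61 to 5.82 and that of Rapsn from 0.96 to 1.05 over 26 alternatives. With only the 2 groups compared, 1 member was called higher at 12 h, and 2 glycosylation and folding genes were called lower at 96 h, as were 2 with DESeq2. With a filter of at least 1 CPM in at least 3 libraries, 1 gene of the WNT and LRP list was called lower. The cause was not tested. With total-count scaling, 1 member was called lower from 48 to 60 h, and Chrna1 (−0.0352), Chrnd (−0.0439), Chrng (−0.0457) and Lrp4 (−0.0017) changed sign. Leaving out 1 library at a time gave 1 to 2 myogenic genes called lower at 96 h, the 2 without GM replicate 2. It gave Musk −0.113 to 0.0224 and Rapsn −0.00665 to 0.113 at 12 h, and Musk −0.0384 to 0.0103 from 48 to 60 h, none of which passed. With 50 kb flanks there were 195 peaks at the loci in the 60 h list and 181 in the GM list, of which 39 (20.0%) and 22 (12.2%) lay in 1 list only. With a 50% reciprocal overlap 38 of 82 and 27 of 71 did, against 20 and 9 with any overlap. Same-numbered libraries did not deviate together (correlations −0.18 to 0.15, 2 of 45 pairs over 0.1), and 2 of 18 libraries correlated best with their own number. With the replicate number as a block, 2, 8, 8, 8 and 8 members were called higher at 12, 24, 48, 60 and 96 h. The planned epsilon to gamma ratio and chain proportions, with their alternatives, were not run. With 2 reads in all at this depth, a change of Chrne over time could not be tested, and the single lists for peaks and loops carry no replicate error.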
